A study of Mus musculus with 9 samples.

Results

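Tetraspanins are small membrane proteins that cross the membrane 4 times and gather integrins, immune receptors and proteases into patches of the plasma membrane and of endosomes. In dendritic cells (DCs) members of the family are known for roles in antigen presentation, adhesion, migration and the release of extracellular vesicles, and several of them (CD9, CD63 and CD81) are standard markers of exosomes. The RNA levels of 10 tetraspanin genes, Cd9, Cd37, Cd53, Cd63, Cd81, Cd82, Cd151, Tspan3, Tspan14 and Tspan33, were followed in sorted splenic DCs of mice with and without T cell acute lymphoblastic leukemia (T-ALL). They were picked by gene symbol from the 54532 genes of the expression table, and 10 of the 10 were found and passed the filter on low values (3 or more samples with an FPKM of 1 or higher, which 12746 genes had).

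RNA was sequenced from 3 samples each of 3 groups, 9 samples in all. Mature conventional DCs were taken from normal mice (N-mDCs) and from leukemic mice (T-mDCs), and leukemic mice also gave the T-DCs, CD11c+ cells gated on low surface MHCII, so that MHCII helped to define this group. The leukemia was driven by a retrovirus that carried the intracellular domain of Notch1 together with GFP, and GFP+ leukemia cells were passed into C57BL/6J or C57B6.SJL mice that had not been irradiated. Which of these strains gave the RNA samples and whether a sample came from 1 mouse or a pool are not given in the sources used here. The mice were female and 6 to 8 weeks old, the spleens were taken on day 15 with lysis of red cells, and CD11c+ cells were enriched with beads before sorting of T-DCs. Nothing in the labels says that the 3 samples of a group came from separate mice, so p-values measure the spread between these samples, which may be technical in part.

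Each sample held between 15360815 and 18440913 reads on genes. T-DC samples 2 and 3 stood apart from T-DC sample 1 and from the other groups. Their 12 erythroid markers summed to an FPKM of 59053 and 43400, against 619 in T-DC sample 1, 100 to 5368 in N-mDCs and 15.6 to 184 in T-mDCs, and none of the 12 was at 0 throughout a group. Their 7 neutrophil markers summed to 3036 and 1014, against 12 in T-DC sample 1, 61.4 to 642 in N-mDCs and 4.48 to 11.6 in T-mDCs. The 9 conventional DC markers summed to 625, 303 and 163 in the 3 T-DC samples in turn, 626 to 742 in N-mDCs and 603 to 641 in T-mDCs. Itgax (CD11c) was at 152, 90.4 and 43.0 in T-DCs and at 158 or more in each mature sample. Flt3 was at 4.48 to 15.4 in T-DCs and at 44.4 or more elsewhere, and Zbtb46 was at 1.84 to 3.42 and at 10.7 or more. Batf3, Xcr1, Clec9a and Cd209a were also lower in every T-DC sample than in every mature sample. Clec10a overlapped with T-mDCs. Sirpa was at 404, 177 and 100 in T-DCs, with T-DC sample 1 the highest of the 9 samples. T-DC sample 1 in turn had the highest sums of 10 macrophage markers (4707, against 1670 and 1226 in T-DC samples 2 and 3, 2173 to 4686 in N-mDCs and 653 to 2063 in T-mDCs) and of 7 monocyte markers (2187, against 966 and 708, 1439 to 1892 and 314 to 721), with none of them at 0 throughout a group. Of the T-DC samples it was the highest for 9 of the 10 tetraspanin genes, all but Tspan33, and the part of macrophage or monocyte RNA in these levels was not tested. The fold changes of T-DCs are also given with T-DC sample 1 as the only T-DC sample, where the lone sample is assumed to vary like the other groups. In these bulk samples fewer cells of a type and less RNA per cell cannot be told apart. The chi-square per gene between T-mDC samples 2 and 3 was 1.80, where 1 is expected from counting alone, and it was 5.45 or higher for every other pair within a group. They were kept as separate samples, and each call that was lost with their mean as 1 sample is given. T-mDC sample 1 had a macrophage sum of 2063, against 659 and 653 in T-mDC samples 2 and 3, and a monocyte sum of 721, against 317 and 314. Of the T-mDC samples it was the lowest for Cd9, Tspan3 and Tspan33 and the highest for the other tetraspanin genes. The part of its make-up in these levels was not tested.

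On genome build mm10 the expression table lists Cd9 (ENSMUSG00000030342) at chr6:125460266-125494791, Cd37 (ENSMUSG00000030798) at chr7:45233632-45239115, Cd53 (ENSMUSG00000040747) at chr3:106759921-106790149, Cd63 (ENSMUSG00000025351) at chr10:128900989-128912822, Cd81 (ENSMUSG00000037706) at chr7:143052739-143067934. It lists Cd82 (ENSMUSG00000027215) at chr2:93419111-93463140, Cd151 (ENSMUSG00000025510) at chr7:141467392-141471473, Tspan3 (ENSMUSG00000032324) at chr9:56131725-56165477, Tspan14 (ENSMUSG00000037824) at chr14:40906445-40966807 and Tspan33 (ENSMUSG00000001763) at chr6:29694222-29718559. The values are for whole genes, so isoforms are not told apart.

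The DNA just before the RefSeq start of the gene is shown for the 5 genes that passed the test in a comparison of T-DCs and for Tspan33, the gene with the widest spread in T-DCs. Each runs 5′ to 3′ over the 250 bases upstream of the RefSeq start (assembly GRCm38.p6), and capitals mark matches, on either strand, to the GC box spelled GGGCGG, the box spelled CCAAT, the GATA motif spelled AGATAA, the PU.1 core spelled GAGGAA, the CRE motif spelled TGACGT or the longer NF-kB motif. The matches did not overlap each other in these sequences. Tspan3 lies at chr9:56161071-56161320 (minus strand), Cd37 at chr7:45238840-45239089 (minus strand), Cd82 at chr2:93462951-93463200 (minus strand), Cd151 at chr7:141467112-141467361 (plus strand), Tspan14 at chr14:40966897-40967146 (minus strand) and Tspan33 at chr6:29693964-29694213 (plus strand).
Tspan3 promoter: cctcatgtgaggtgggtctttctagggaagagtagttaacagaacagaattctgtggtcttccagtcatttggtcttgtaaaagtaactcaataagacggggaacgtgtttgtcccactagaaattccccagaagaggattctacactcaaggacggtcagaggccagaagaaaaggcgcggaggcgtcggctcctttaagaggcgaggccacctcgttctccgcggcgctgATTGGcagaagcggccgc
Cd37 promoter: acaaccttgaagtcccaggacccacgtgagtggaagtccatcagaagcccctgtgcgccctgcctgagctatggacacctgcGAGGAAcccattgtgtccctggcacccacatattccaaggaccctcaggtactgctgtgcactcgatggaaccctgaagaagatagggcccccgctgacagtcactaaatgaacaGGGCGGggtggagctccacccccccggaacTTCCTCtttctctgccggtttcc
Cd82 promoter: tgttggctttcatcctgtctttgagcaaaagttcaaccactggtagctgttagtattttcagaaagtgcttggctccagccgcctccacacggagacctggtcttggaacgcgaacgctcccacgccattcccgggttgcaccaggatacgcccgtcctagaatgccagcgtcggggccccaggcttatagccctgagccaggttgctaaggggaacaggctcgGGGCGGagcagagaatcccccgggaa
Cd151 promoter: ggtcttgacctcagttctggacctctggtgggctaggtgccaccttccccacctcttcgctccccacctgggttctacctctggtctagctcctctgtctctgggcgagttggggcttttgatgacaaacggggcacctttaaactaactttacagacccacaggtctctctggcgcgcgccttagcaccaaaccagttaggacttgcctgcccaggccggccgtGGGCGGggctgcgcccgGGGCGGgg
Tspan14 promoter: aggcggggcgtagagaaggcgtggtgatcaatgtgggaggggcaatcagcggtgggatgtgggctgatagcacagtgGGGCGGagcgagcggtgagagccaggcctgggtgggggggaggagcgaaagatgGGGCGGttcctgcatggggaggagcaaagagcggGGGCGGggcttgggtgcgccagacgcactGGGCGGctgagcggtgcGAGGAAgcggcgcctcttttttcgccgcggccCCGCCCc
Tspan33 promoter: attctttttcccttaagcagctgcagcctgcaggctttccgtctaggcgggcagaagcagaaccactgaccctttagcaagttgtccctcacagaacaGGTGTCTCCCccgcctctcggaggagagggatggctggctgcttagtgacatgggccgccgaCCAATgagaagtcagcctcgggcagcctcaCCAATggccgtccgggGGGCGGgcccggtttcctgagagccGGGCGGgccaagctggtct

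The GC box was found before 7 of the 10 genes (Cd9, Cd37, Cd81, Cd82, Cd151, Tspan14 and Tspan33) and before 32.7% of 32851 RefSeq promoters of the same length, with 5 copies before Tspan14. CCAAT was found before Cd53, Tspan3 and Tspan33 and before 33.8% of all promoters. The PU.1 core was found before Cd37, Cd53, Cd63 and Tspan14 and before 23.3% of all promoters. Tspan33 held the NF-kB motif (17.6% of all promoters) and Cd63 the CRE motif (6.47%). The GATA motif was searched only as AGATAA, on either strand, and none of the 10 held this spelling (9.99% of all promoters). Other spellings around GATA, such as AGATAG before Cd37 and TGATAG before Tspan14, were not counted. These matches describe the letters of the window and no binding was measured. The RefSeq starts of Tspan3, Cd63 and Cd37 lie 4407, 8356 and 276 bases inside the genes as the expression table lists them, so their windows are wholly inside the listed gene, and that of Cd82 lies 190 bases inside, so most of its window is too.

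Taken by level, Cd53 and Cd82 were the highest of the 10 genes in N-mDCs, with FPKM of 211 ± 44.3 and 178 ± 43.8 (mean ± SD over 3 samples, here and below). Cd82 and Cd53 also led in T-DCs (211 ± 28.6 and 177 ± 94.6) and, in the opposite order, in T-mDCs (167 ± 22.3 for Cd53 and 87.1 ± 16.1 for Cd82). Cd151 was the lowest in N-mDCs (4.4 ± 1.01) and in T-mDCs (3.04 ± 0.752), and in T-DCs Cd63 (6.91 ± 2.65) and Cd151 (7.68 ± 1.67) did not differ beyond their spread. FPKM counts reads per kilobase of the listed gene length, and Cd63 is listed with 3682 bases, so its place in this order rests on that length. For 7 of the 10 genes the highest and the lowest sample lay further apart, as a ratio, in T-DCs than in both other groups, and Cd63, Cd82 and Cd151 were the exceptions. The highest T-DC sample was 18.4 times the lowest for Tspan33 and between 1.31 and 3.12 times for the other 9 genes, where the median over all tested genes was 1.93 in T-DCs, 1.53 in N-mDCs and 1.27 in T-mDCs.

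**Figure D1:**
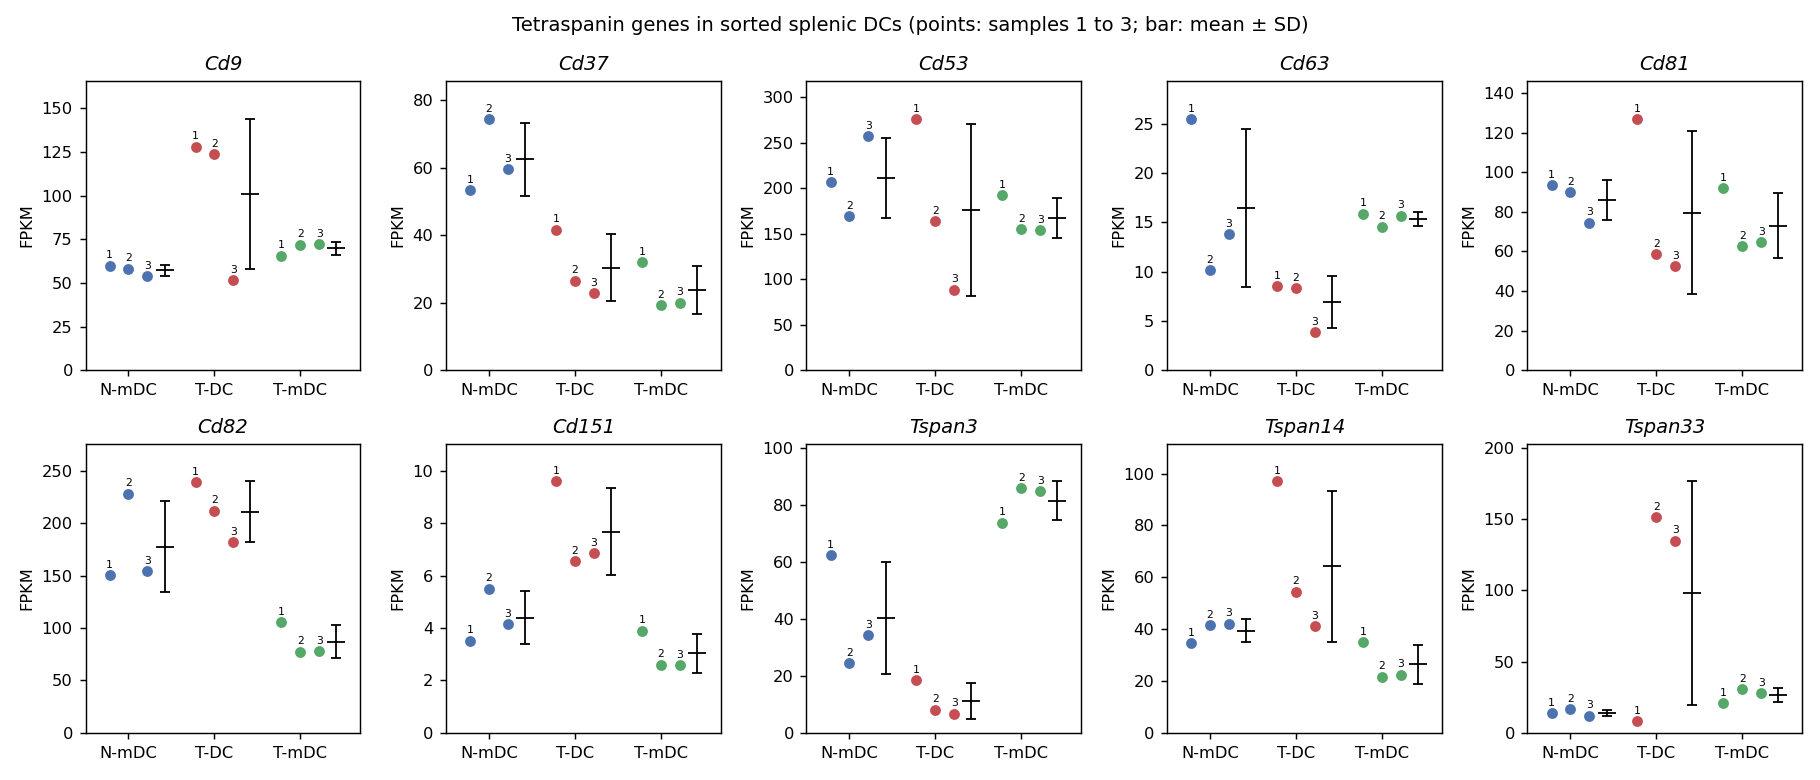
FPKM of the 10 tetraspanin genes in each sample (y axis, from 0, a scale of its own for each gene) by group (x axis); numbered points are samples 1 to 3 and the bar beside them is the mean with the SD. Tspan3 sat at 6.80 to 18.6 in T-DCs, below the samples of both other groups, while Tspan33 was at 8.20 in T-DC sample 1 and at 151 and 135 in T-DC samples 2 and 3.

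T-DCs expressed lower levels of Tspan3 and Cd37 than N-mDCs, and no gene of the 10 was called higher. The 2 called genes of 10 compare with 16.4% of all tested genes in this comparison, 6.1% higher and 10.3% lower in T-DCs (limma, Benjamini-Hochberg adjusted p under 0.05). Against T-mDCs, T-DCs expressed higher levels of Cd82, Cd151 and Tspan14 and lower levels of Tspan3, 4 genes of 10 where 14.2% of all tested genes were called, 5.44% higher and 8.79% lower. With quantile normalization or limma voom on the recovered reads the call of Tspan14 was lost and Cd63 was called lower. This made 2 genes higher and 2 lower, beside 14.2% and 15.1% of all genes called. With values rescaled to TPM the calls of Cd151 and Tspan14 were lost, so 1 gene was higher and 1 lower, beside 13.4%. None of the 4 genes turned direction. T-mDCs expressed a lower level of Cd37 than N-mDCs, 1 gene of 10 where 2.21% of all genes were called, 0.69% higher and 1.52% lower. Samples of the groups did not overlap for 4 genes between T-DCs and N-mDCs (32.4% of all genes), for 5 between T-DCs and T-mDCs (34.9%) and for 5 between T-mDCs and N-mDCs (35%). The median log2 fold change of the 10 genes was 0.02 for T-DCs against N-mDCs, 0.37 for T-DCs against T-mDCs and -0.29 between T-mDCs and N-mDCs, beside 0.05, 0.07 and 0.03 over all tested genes. The 3 comparisons share their groups, so they are not independent of each other. With T-mDC samples 2 and 3 averaged the counts were 1, 1 and 0, beside 10.9%, 4.24% and 0.18% of all genes. Values with T-DC sample 1 as the only T-DC sample are given with the genes below.

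**Figure D2:**
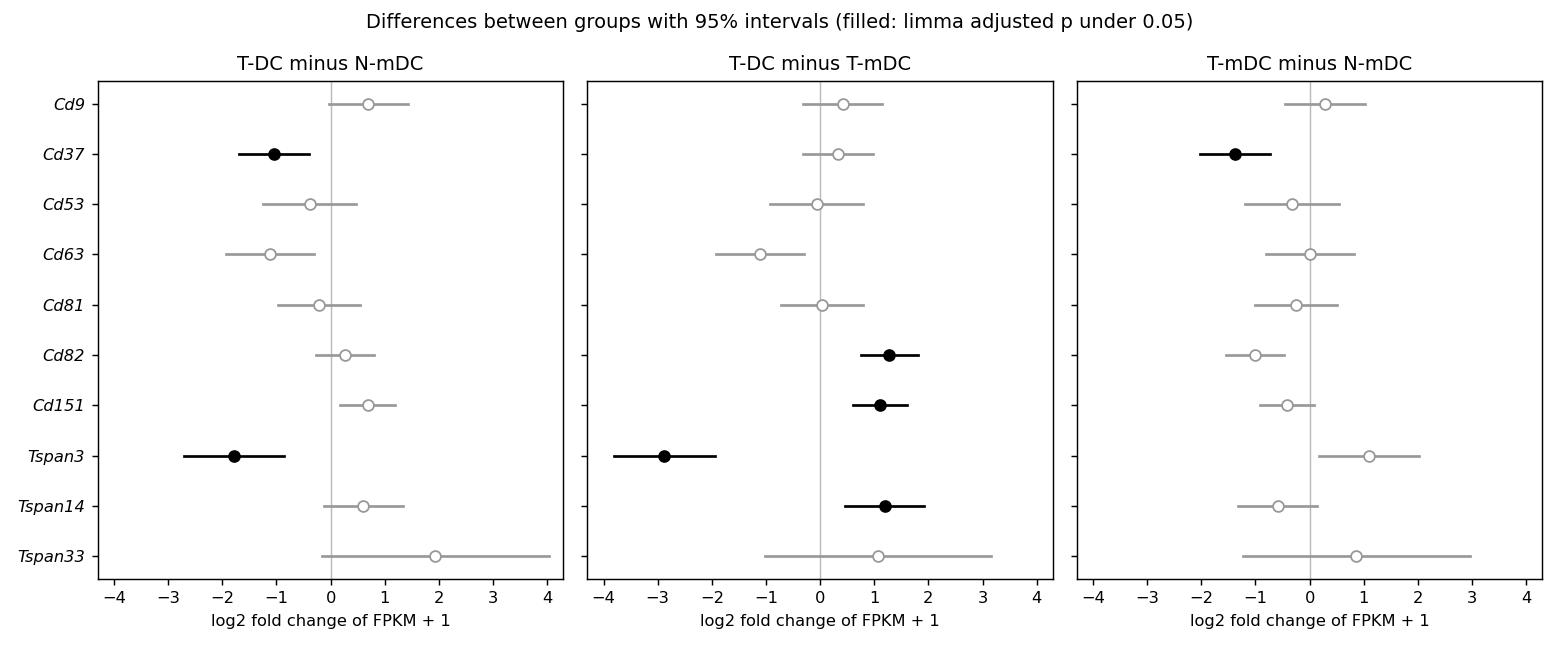
Log2 fold change of FPKM + 1 (x axis) with its 95% interval for each of the 10 genes (y axis) in the 3 comparisons of groups; filled black points passed an adjusted p of 0.05 in limma and open grey points did not. Tspan3 was lower in T-DCs in both T-DC panels, Cd82, Cd151 and Tspan14 were higher in T-DCs than in T-mDCs, and the interval of Tspan33 was the widest.

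Tspan3 encodes a broadly expressed tetraspanin. Its FPKM was 62.4, 24.5 and 34.3 in N-mDCs (in the order of samples 1 to 3, as for all genes below), 18.6, 8.17 and 6.80 in T-DCs, and 73.7, 85.7 and 84.9 in T-mDCs. Every T-DC sample was below every sample of the other groups, and every T-mDC sample was above every N-mDC sample. On the log2 scale it fell by 1.78 from N-mDCs to T-DCs (SE 0.41, adjusted p = 0.0219), and against T-mDCs the log2 fold change of T-DCs was -2.88 (SE 0.41, adjusted p = 0.0038). The difference between T-mDCs and N-mDCs was 1.10 (adjusted p = 0.225). With T-DC sample 1 as the only T-DC sample the log2 fold changes were -0.97 against N-mDCs (adjusted p = 0.242) and -2.07 against T-mDCs (adjusted p = 0.0514). Leaving out N-mDC sample 1 (adjusted p = 0.07) or 3 (0.0595), or T-DC sample 2 (0.0776) or 3 (0.0713), also ended the call against N-mDCs, whereas the call against T-mDCs was kept without any one sample. Within N-mDCs the lowest level, in sample 2, was in the sample with the highest erythroid sum of that group (5368), and the part of this in the result was not tested. The maturation genes Ccr7 and Fscn1 had group means in the same order as Tspan3 and were also lowest in sample 2 within N-mDCs, with Fscn1 at 241, 55.1 and 107 in N-mDCs, 4.39, 3.98 and 1.25 in T-DCs and 333, 373 and 392 in T-mDCs, and Ccr7 at 867, 295 and 576, at 9.54, 24.6 and 1.60, and at 539, 899 and 923. Cd40, Cd86 and Ciita had group means in this order too. Cd83, H2-Ab1 and Cd74 did not, with means of 779, 5214 and 11083 in N-mDCs and 251, 3153 and 7570 in T-mDCs. Within N-mDCs, Cd40, Cd83 and Ciita were lowest in sample 2, Cd86 in sample 1, and H2-Ab1 and Cd74 were highest in sample 2. Summed over all 8 mature DC markers, none at 0 throughout a group, the T-DCs reached an FPKM of 477 to 1780. The sums were 14321 to 20353 for N-mDCs and 9630 to 13686 for T-mDCs. The part of the degree of maturation in the levels of Tspan3 was not tested. The tested genes outside the family with the most similar profile over the 9 samples were Swap70, a regulator of the actin cytoskeleton, and Pfkfb3, a regulator of glycolysis. Their root mean square difference from Tspan3 was 0.21 and 0.23 on the log2 scale, where the median over all genes was 1.34.

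Cd37, Cd53 and Cd82 are expressed widely in leukocytes. CD37 is found mainly on blood cells and associates with the fungal receptor Dectin-1, CD53 is a common marker of leukocytes, and CD82 was first known as a suppressor of metastasis. The FPKM of Cd37 was 53.5, 74.6 and 59.6 in N-mDCs, 41.7, 26.6 and 22.9 in T-DCs, and 32.1, 19.3 and 20.02 in T-mDCs. All N-mDC samples were above all samples from leukemic mice, and the T-DC and T-mDC samples overlapped. The B cell markers Cd79a, Ms4a1 and Bank1 were likewise higher in every N-mDC sample than in every sample from leukemic mice. The means of Cd79a were 109 in N-mDCs, 21.9 in T-DCs and 30.6 in T-mDCs, with 65.2, 13.4 and 13.1 in the T-mDC samples. Pax5, Cd79b and Ighm overlapped between N-mDCs and T-mDCs. Pax5 and Cd79b were lower in every T-DC sample than in every N-mDC sample. Ighm overlapped there too, at 562, 3471 and 1225 in N-mDCs and 446, 3660 and 1298 in T-DCs. The part of B cell RNA in the levels of Cd37 was not tested. Cd37 fell by 1.05 on the log2 scale from N-mDCs to T-DCs (SE 0.28, adjusted p = 0.0384) and by 1.38 from N-mDCs to T-mDCs (SE 0.28, adjusted p = 0.0483). Between T-DCs and T-mDCs it differed by 0.33, with a 95% interval from -0.32 to 0.98 (adjusted p = 0.467). Both calls were near the threshold. The call in T-DCs was lost when any one N-mDC sample, or sample 2 or 3 of either leukemic group, was left out, with adjusted p from 0.0609 (without T-mDC sample 2) to 0.12 (without T-DC sample 2), and the log2 fold change with T-DC sample 1 alone was -0.56 (adjusted p = 0.346). The call in T-mDCs was lost when any one N-mDC sample, T-DC sample 2, or sample 2 or 3 of the T-mDCs was left out, with adjusted p from 0.0795 (without N-mDC sample 1) to 0.211 (without T-mDC sample 2). Both calls were also lost with T-mDC samples 2 and 3 averaged (adjusted p = 0.0624 in T-DCs and 0.21 in T-mDCs), and T-DC sample 1 alone differed from T-mDCs by 0.82 (adjusted p = 0.172). Map1lc3a, which encodes an LC3 protein of autophagosomes, and Meis3, a homeobox gene, had the most similar profiles, at 0.11 and 0.13 from Cd37 where the median of all genes was 0.78.

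Clec7a, the gene of Dectin-1, was also lower in both groups from leukemic mice. Its FPKM was 168, 106 and 145 in N-mDCs, 33.5, 22.1 and 13.8 in T-DCs, and 26.7, 32.0 and 30.3 in T-mDCs. Relative to N-mDCs the log2 fold change was -2.60 in T-DCs (SE 0.31, adjusted p = 0.00171) and -2.18 in T-mDCs (SE 0.31, adjusted p = 0.0156). In T-DC sample 1 alone it was -2.0 (adjusted p = 0.0207). Leaving out N-mDC sample 3, or sample 2 or 3 of the T-mDCs, ended the call in T-mDCs (adjusted p = 0.075, 0.0828 and 0.0785), as did the mean of the latter 2 samples (0.0801).

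Cd82 was higher in T-DCs than in T-mDCs, with no overlap. Its FPKM was 151, 228 and 154 in N-mDCs, 239, 212 and 182 in T-DCs, and 106, 77.5 and 78.2 in T-mDCs. The log2 fold change between T-DCs and T-mDCs was 1.27 (SE 0.23, adjusted p = 0.00993), a 2.42-fold ratio of the mean FPKM. T-DCs and N-mDCs overlapped, with a log2 fold change of 0.27 (95% interval -0.26 to 0.79, adjusted p = 0.444). T-mDCs were below every N-mDC sample, and this difference of -1.01 did not pass the threshold (adjusted p = 0.0694). Against T-mDCs the log2 fold change was 1.46 with T-DC sample 1 alone (adjusted p = 0.0485), and against N-mDCs it was 0.45 (adjusted p = 0.412). Without T-mDC sample 2 or 3, and with their mean as 1 sample, it was 1.20 in each case and the call was lost (adjusted p = 0.061, 0.0615 and 0.0607). Prdx5, a peroxiredoxin, and Pced1b had the most similar profiles, at 0.15 and 0.16 from Cd82 with a median of 0.70 over all genes.

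Cd53 did not pass the threshold in any comparison. Its FPKM was 207, 170 and 258 in N-mDCs, 277, 164 and 88.6 in T-DCs, and 193, 155 and 154 in T-mDCs. T-DC sample 1 was the highest of all 9 samples and T-DC sample 3 the lowest, so the direction against N-mDCs turned from -0.39 (adjusted p = 0.497) to 0.41 with T-DC sample 1 alone (adjusted p = 0.409) and to 0.03 without T-DC sample 3. Against T-mDCs the log2 fold change of -0.06 (adjusted p = 0.928) turned to 0.73 with T-DC sample 1 alone, to 0.36 without T-DC sample 3 and to 0.04 without T-mDC sample 1.

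Cd9, Cd63 and Cd81 encode the tetraspanins commonly used to detect exosomes, with CD63 mainly in late endosomes and lysosomes and CD9 and CD81 at the plasma membrane. Cd63 had an FPKM of 25.5, 10.2 and 13.8 in N-mDCs, 8.52, 8.36 and 3.85 in T-DCs, and 15.9, 14.6 and 15.7 in T-mDCs. Every T-DC sample was below every mature sample, and the log2 fold change from N-mDCs was -1.12 (SE 0.36, adjusted p = 0.0642) and from T-mDCs also -1.12 (SE 0.36, adjusted p = 0.0716), neither past the threshold. Without T-DC sample 1 both passed (adjusted p = 0.0309 and 0.0342), as did the first without N-mDC sample 2 (0.0487) and the second without N-mDC sample 1 (0.0482). With T-DC sample 1 alone both values were -0.78 (adjusted p = 0.312 and 0.308). Cd9 had an FPKM of 60.0, 58.2 and 53.8 in N-mDCs, 128, 124 and 51.6 in T-DCs, and 65.7, 72 and 72.2 in T-mDCs. T-DC samples 1 and 2 were the highest of the 9 samples and T-DC sample 3 was the lowest. The log2 fold changes of T-DCs were 0.70 against N-mDCs (95% interval -0.04 to 1.43, adjusted p = 0.158) and 0.42 against T-mDCs (adjusted p = 0.42). Without T-DC sample 3 both values passed the threshold, at 1.12 (adjusted p = 0.00757) and 0.84 (adjusted p = 0.0212), and so they did with T-DC sample 1 alone (1.15 and 0.87, adjusted p = 0.025 and 0.0451).

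Cd81 had an FPKM of 93.5, 90.1 and 74.6 in N-mDCs, 127, 58.9 and 52.8 in T-DCs, and 92.2, 62.6 and 64.6 in T-mDCs. T-DC sample 1 was again the highest of the 9 samples and T-DC sample 3 the lowest. The log2 fold change of T-DCs was -0.22 against N-mDCs (adjusted p = 0.672), but 0.56 with T-DC sample 1 alone and 0.02 without T-DC sample 3, and 0.03 against T-mDCs (adjusted p = 0.96), but 0.81 with T-DC sample 1 alone (adjusted p = 0.118), -0.36 without T-DC sample 1 and between -0.30 and -0.13 with TPM, quantile normalization or limma voom. T-mDCs and N-mDCs differed by -0.25 (95% interval -1.0 to 0.51, adjusted p = 0.752).

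Of 12 genes of endosomal sorting and vesicle release (among them Pdcd6ip, Tsg101, Sdcbp, Hgs and Rab27a), 10 passed the filter and 0 were called by limma in each of the 3 comparisons, beside 16.4%, 14.2% and 2.21% of all genes. At an unadjusted p under 0.05, 2 passed against N-mDCs, 2 against T-mDCs and 0 between the mature groups, beside 35.1%, 30.1% and 16.7% of all genes. The median log2 fold change of these genes in T-DCs was 0.28 from N-mDCs and 0.15 from T-mDCs.

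Cd151 encodes a tetraspanin that binds laminin-binding integrins. Its FPKM was low, at 3.52, 5.51 and 4.16 in N-mDCs, 9.59, 6.57 and 6.87 in T-DCs, and 3.90, 2.61 and 2.60 in T-mDCs, from between 131 and 471 reads a sample. All T-DC samples were above all samples of the other groups. The log2 fold change was 1.10 relative to T-mDCs (SE 0.22, adjusted p = 0.0145) and 0.69 relative to N-mDCs (SE 0.22, adjusted p = 0.0656). With T-DC sample 1 alone it was 1.41 against T-mDCs (adjusted p = 0.0451) and 0.99 against N-mDCs (adjusted p = 0.0892). The call was lost, at 1.03, without T-mDC sample 2 or 3 (adjusted p = 0.079 and 0.0784) and with their mean as 1 sample (0.0786). The integrin genes Itga4, Itga6 and Itgb1 passed the filter and none was called in any of the 3 comparisons, and Itga3 did not pass the filter. The adhesion molecule Icam2 and the receptor kinase Grk6 had the most similar profiles to Cd151, at 0.11 and 0.12 with a median of 0.62 over all genes.

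Tspan14 and Tspan33 belong to the TspanC8 subgroup, whose members bind the protease ADAM10 and carry it out of the endoplasmic reticulum. ADAM10 cleaves many surface proteins, Notch receptors included. The FPKM of Tspan14 was 34.5, 41.7 and 42.2 in N-mDCs, 97.0, 54.5 and 41.1 in T-DCs, and 35.1, 21.7 and 22.5 in T-mDCs. T-DC and T-mDC samples did not overlap, with a log2 fold change of 1.19 (SE 0.32, adjusted p = 0.0415), while T-DCs and N-mDCs overlapped (0.60, adjusted p = 0.213). With T-DC sample 1 alone the values were 1.87 against T-mDCs (adjusted p = 0.0403) and 1.28 against N-mDCs (adjusted p = 0.0591), and without T-DC sample 1 they were 0.85 (adjusted p = 0.0295) and 0.26 (adjusted p = 0.426). The call against T-mDCs was lost when any one N-mDC sample, T-DC sample 2, or sample 2 or 3 of the T-mDCs was left out (adjusted p from 0.06 without N-mDC sample 2 to 0.165 without T-mDC sample 2) and with T-mDC samples 2 and 3 averaged (0.161). Pfkfb4, a regulator of glycolysis, and Laptm4a, a lysosomal membrane protein, had the most similar profiles, at 0.11 and 0.12 with a median of 0.70 over all genes.

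Tspan33, also known as Penumbra, was first described in erythroblasts and is also expressed by activated B cells. Its FPKM was 13.8, 16.4 and 12.2 in N-mDCs, 8.20, 151 and 135 in T-DCs, and 21.1, 30.8 and 28.1 in T-mDCs. T-DC sample 1 was the lowest of the 9 samples and T-DC samples 2 and 3 were the highest. The log2 fold change of T-DCs was 1.94 against N-mDCs (95% interval -0.15 to 4.03, adjusted p = 0.167) and 1.07 against T-mDCs (adjusted p = 0.465). With T-DC sample 1 alone the direction turned, to -0.71 against N-mDCs (adjusted p = 0.161) and -1.57 against T-mDCs (adjusted p = 0.0411), and without T-DC sample 1 the values were 3.26 (adjusted p = 3.59e-05) and 2.39 (adjusted p = 0.00017). The T-DC samples with high Tspan33 were those with erythroid sums of 59053 and 43400. N-mDC sample 2, with an erythroid sum of 5368, was at 16.4, close to the other N-mDC samples. All T-mDC samples were above all N-mDC samples (log2 fold change 0.86, adjusted p = 0.68), and their erythroid sums were 15.6 to 184. The part of red cell RNA in the levels of Tspan33 was not tested.

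**Figure D3:**
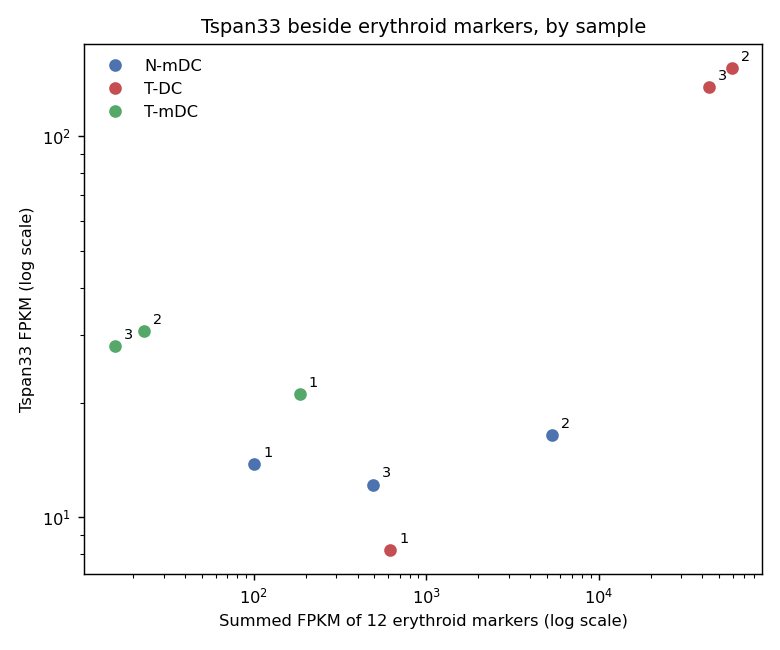
Tspan33 FPKM (y axis, log scale) against the summed FPKM of 12 erythroid markers (x axis, log scale) in each sample; colours are groups and numbers are samples. T-DC samples 2 and 3 sit at the top right (151 and 135) and T-DC sample 1 sits lowest (8.20). The T-mDCs lie above the N-mDCs, and the erythroid sums of these groups overlap (15.6 to 184 in T-mDCs, 100 to 5368 in N-mDCs).

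Adam10 itself was higher in T-DCs than in both mature groups. Its FPKM was 21.4, 13 and 24 in N-mDCs, 41.3, 92.9 and 72.7 in T-DCs, and 26.6, 22.8 and 21.9 in T-mDCs, without overlap. The log2 fold change was 1.74 relative to N-mDCs (SE 0.32, adjusted p = 0.00987) and 1.43 relative to T-mDCs (SE 0.32, adjusted p = 0.0233). T-DC sample 1 was the lowest of the T-DCs, and alone it gave 1.09 (adjusted p = 0.105) and 0.78 (adjusted p = 0.196). Leaving out T-DC sample 2 (adjusted p = 0.0798) or 3 (0.069), or T-mDC sample 2 (0.0969) or 3 (0.0999), also ended the call against T-mDCs, as did the mean of T-mDC samples 2 and 3 (0.0976). Of the other TspanC8 genes, Tspan15 passed the test in each of the 3 comparisons. Its FPKM was 3.35, 5.11 and 3.42 in N-mDCs, 2.52, 1.65 and 1.64 in T-DCs, and 0.848, 0.430 and 0.439 in T-mDCs, in 3 separate ranges. T-DCs lay between the mature groups, and their log2 fold change from N-mDCs was -0.75 (adjusted p = 0.0444) and from T-mDCs 0.90 (adjusted p = 0.0267), and that of T-mDCs from N-mDCs was -1.65 (adjusted p = 0.0118). The calls against T-mDCs were lost without T-mDC sample 2 (adjusted p = 0.118 for T-DCs and 0.0776 for N-mDCs) or 3 (0.118 and 0.07), that of T-DCs also without T-DC sample 2 (0.0652) or 3 (0.0517), and that of T-DCs against N-mDCs held in 5 of 22 alternatives and was lost without any one sample other than T-DC sample 1 (adjusted p from 0.0506 without T-mDC sample 1 to 0.14 without T-DC sample 2). Averaging T-mDC samples 2 and 3 lost the 3 calls of Tspan15 (adjusted p = 0.0748 and 0.117 for T-DCs against N-mDCs and T-mDCs, 0.0749 between the mature groups). T-DC sample 1 alone gave -0.48 against N-mDCs (adjusted p = 0.336) and 1.17 against T-mDCs (adjusted p = 0.0586), so that both T-DC calls were lost. Tspan17 and Tspan5, also of this subgroup, passed the filter and were not called, with T-DC means of 5.6 and 1.81, and Tspan10 did not pass the filter.

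Among the 21 other tetraspanin genes found in the table, 10 passed the filter. T-DCs expressed a higher level of 1 of them (Tspan32) and lower levels of 4 (Tspan13, Tspan9, Tspan2 and Tspan15) than N-mDCs. Against T-mDCs they expressed higher levels of 2 (Tspan32 and Tspan15) and lower levels of 2 (Tspan9 and Tspan2), and T-mDCs expressed a lower level of 1 (Tspan15) than N-mDCs. With the 10 genes described above, 7 of 20 tested tetraspanins were called between T-DCs and N-mDCs, 8 of 20 between T-DCs and T-mDCs and 2 of 20 between the mature groups, beside 16.4%, 14.2% and 2.21% of all genes. Tspan13 had a mean of 192 ± 15.2 in N-mDCs, between Cd82 and Cd53. Its FPKM was 195, 205 and 175 in N-mDCs, 114, 60.2 and 60.3 in T-DCs, and 109, 126 and 132 in T-mDCs, and it fell by 1.35 on the log2 scale from N-mDCs to T-DCs (SE 0.26, adjusted p = 0.0112). T-DC sample 1 alone gave -0.75 (adjusted p = 0.079).

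Tspan9 and Tspan2 followed Tspan3 in being lower in T-DCs than in both mature groups. Tspan9, known from platelets, was at 12.3, 11.1 and 11.2 in N-mDCs, 4.15, 1.66 and 0.675 in T-DCs, and 5.32, 9.16 and 9.73 in T-mDCs. The log2 fold change of T-DCs was -2.14 from N-mDCs (adjusted p = 0.00857) and -1.64 from T-mDCs (adjusted p = 0.0258). Tspan2, known from oligodendrocytes, was at 11.2, 6.23 and 8.43 in N-mDCs, 2.43, 2.62 and 1.32 in T-DCs, and 5.39, 8.39 and 9.65 in T-mDCs. For it the log2 fold change of T-DCs was -1.62 from N-mDCs (adjusted p = 0.00791) and -1.49 from T-mDCs (adjusted p = 0.0117). With T-DC sample 1 alone these were -1.28 and -0.78 for Tspan9 (adjusted p = 0.0636 and 0.167) and -1.46 and -1.33 for Tspan2 (adjusted p = 0.0724 and 0.0804), the calls against T-mDCs were lost without T-mDC sample 2 or 3 (adjusted p = 0.108 and 0.111 for Tspan9, 0.0614 and 0.0635 for Tspan2) and with their mean (0.11 and 0.0617), and that of Tspan9 also without T-DC sample 2 (0.0843) or 3 (0.0596). Tspan32, a tetraspanin of blood cells, was at 1.87, 2.76 and 2.23 in N-mDCs, 4.08, 8.30 and 7.60 in T-DCs, and 1.75, 0.506 and 0.462 in T-mDCs. It was higher in T-DCs by 1.18 against N-mDCs (adjusted p = 0.0362) and 2.02 against T-mDCs (adjusted p = 0.00508), and with T-DC sample 1 alone by 0.64 (adjusted p = 0.357) and 1.48 (adjusted p = 0.0707). Leaving out any one N-mDC sample, or sample 2 or 3 of either leukemic group, ended its call against N-mDCs (adjusted p from 0.0535 without T-mDC sample 3 to 0.122 without T-DC sample 2), and so did averaging T-mDC samples 2 and 3 (0.0544). Tspan4, Tspan31 and Rom1 also passed the filter and were not called, with T-DC means of 24.5, 14.4 and 3.59.

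**Figure D4:**
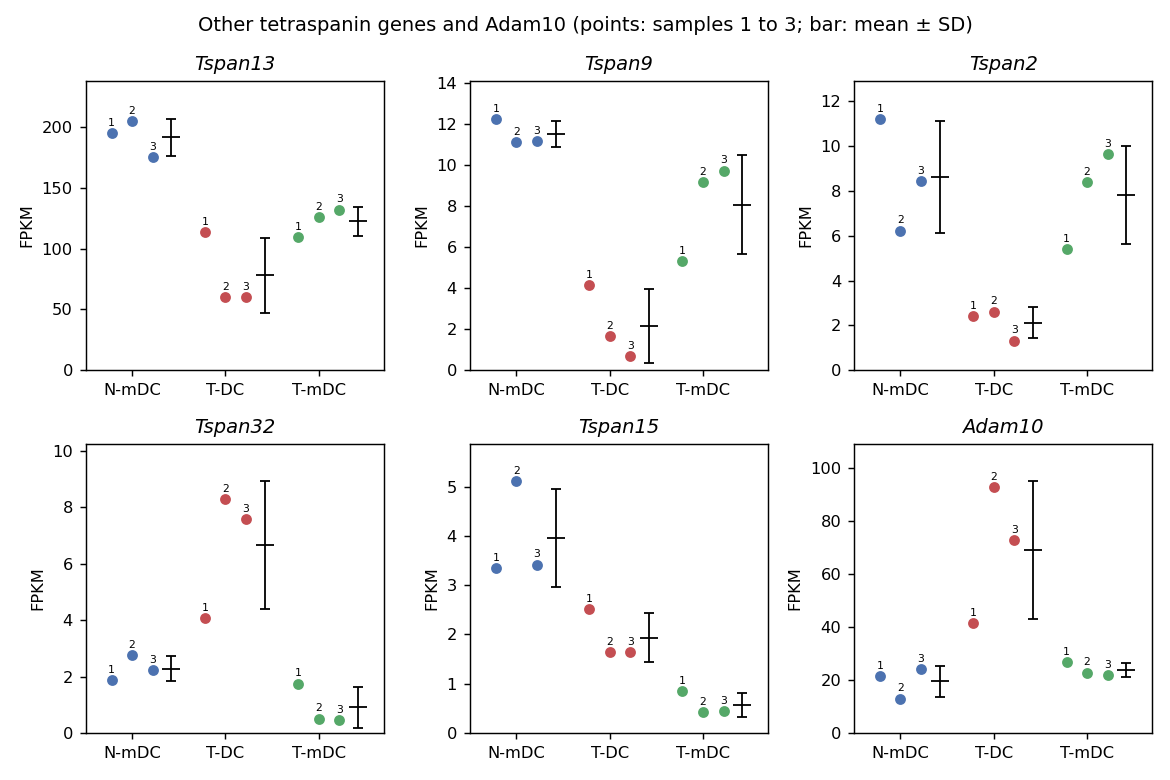
FPKM of 5 other tetraspanin genes and of Adam10 in each sample (y axis, from 0, a scale of its own for each gene) by group (x axis); numbered points are samples 1 to 3 and the bar beside them is the mean with the SD. T-DCs lay below N-mDCs for Tspan13, Tspan9 and Tspan2, Tspan32 and Adam10 were higher in T-DCs than in both mature groups, and Tspan15 formed 3 separate ranges.

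Of 14 genes of proteins that tetraspanins bind, 11 passed the filter. Against N-mDCs, 2 were higher in T-DCs (Adam10 and Cd36) and 1 lower (Clec7a), against T-mDCs 2 were higher (Adam10 and Cd36) and 1 lower (Icam1), and between T-mDCs and N-mDCs 1 was lower (Clec7a). These are 3, 3 and 1 of 11 tested genes, beside 16.4%, 14.2% and 2.21% of all genes. Cd36, a scavenger receptor that associates with CD9, was at 30.2, 21.7 and 30.3 in N-mDCs, 115, 80.1 and 68.4 in T-DCs, and 50.7, 31.3 and 32.7 in T-mDCs. All T-DC samples were above all others, with log2 fold changes of 1.63 against N-mDCs (SE 0.27, adjusted p = 0.00645) and 1.18 against T-mDCs (SE 0.27, adjusted p = 0.0241), and of 2.05 (adjusted p = 0.028) and 1.60 (adjusted p = 0.046) with T-DC sample 1 alone. Leaving out T-DC sample 2, or sample 2 or 3 of the T-mDCs, ended the call of Cd36 against T-mDCs (adjusted p = 0.0674, 0.114 and 0.112), as did the mean of these T-mDC samples (0.113). Icam1, an adhesion molecule, was at 50.1, 21 and 12.1 in T-DCs and 62.6, 85.5 and 82.3 in T-mDCs (log2 fold change -1.66, adjusted p = 0.0383), with -0.59 (adjusted p = 0.227) in T-DC sample 1 alone. Its call was lost without any one of 8 of the 9 samples and held without T-DC sample 1 (adjusted p from 0.0531 without T-mDC sample 1 to 0.142 without T-mDC sample 2), and it was lost with T-mDC samples 2 and 3 averaged (0.139). Of the others, Adam17, Igsf8, Vcam1 and Cd44 passed the filter and were not called, and Ptgfrn and Timp1 did not pass it.

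The make-up of the 10 tetraspanin genes was described as the share of each in their summed FPKM. The sum was 710 ± 8.07 in N-mDCs, 787 ± 183 in T-DCs and 574 ± 55.6 in T-mDCs. Tspan3 made up 5.71% ± 2.82 of it in N-mDCs, 1.37% ± 0.51 in T-DCs and 14.3% ± 2.42 in T-mDCs. Cd82 made up 25.0% ± 5.85, 27.3% ± 3.06 and 15.1% ± 1.27, and Cd53 29.8% ± 6.46, 21.4% ± 7.07 and 29.1% ± 1.02. Tspan33 made up 0.859% of the sum in T-DC sample 1 and 18.6% and 22.8% in T-DC samples 2 and 3, against 1.99% ± 0.283 in N-mDCs and 4.72% ± 1.26 in T-mDCs. A share falls when another gene rises, so the shares are descriptions and were not tested.

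**Figure D5:**
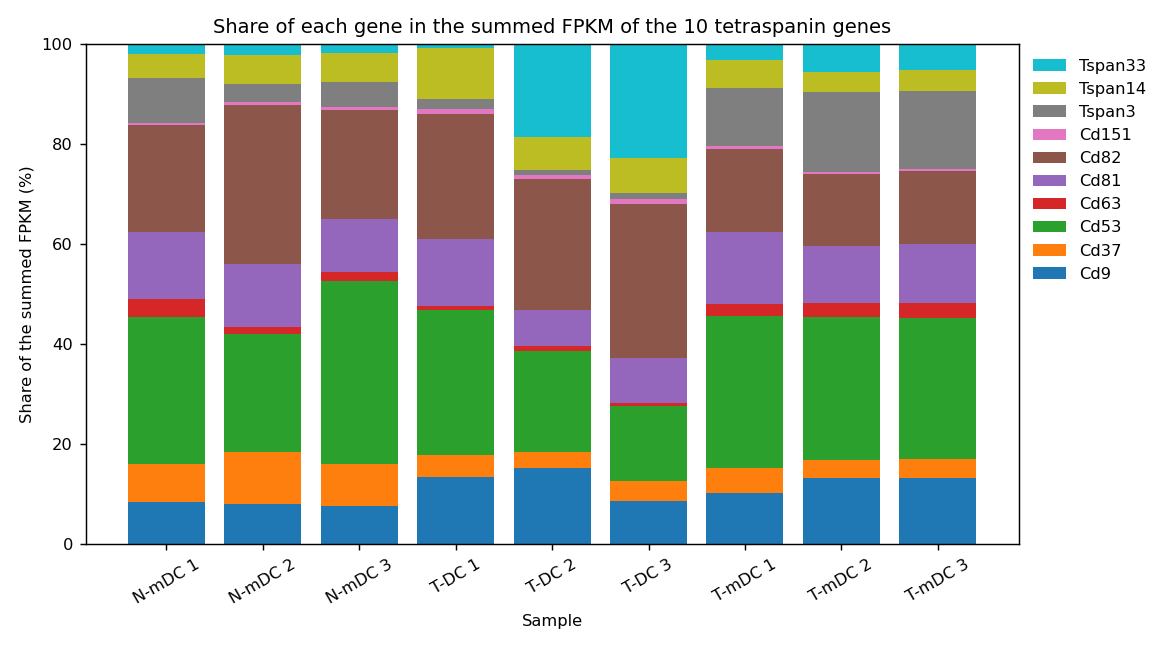
Share of each of the 10 tetraspanin genes in their summed FPKM (y axis, percent) in each of the 9 samples (x axis); colours are genes, stacked in the order of the legend. Tspan3 takes a larger share in T-mDCs (14.3% on average) than in T-DCs (1.37%), and Tspan33 is large only in T-DC samples 2 and 3 (18.6% and 22.8%).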

How the data were processed

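RNA of sorted splenic DCs was extracted with a column kit, and libraries were sequenced by a service company. The authors deposited FPKM, the reads on a gene per kilobase of listed length, scaled by a size set for each library, for 54532 Ensembl genes, 1 column per sample, on genome build mm10 per the labels. The aligner, the counter, the use of strand and the annotation are not given in the sources used here. Of the genes, 54409 are in GENCODE M21. FPKM multiplied by the listed length gave whole reads in every sample (largest distance from a whole number 0.000825 reads), and the largest library size used for scaling was 1.27 times the smallest.

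For the 12746 genes that reached an FPKM of 1 in 3 or more samples, log2(FPKM + 1) was modelled by limma 3.58.1 under R 4.3.3 (functions lmFit, contrasts.fit and eBayes with trend), all 9 samples together and Benjamini-Hochberg adjustment over all tested genes at a threshold of 0.05. Fold changes on this scale understate those of genes with low FPKM. The test was run on simulated data first. The 10 genes, the lists and the tests were chosen with earlier results of these data known. Named genes are the 10 members, other tetraspanins past the filter, partner and vesicle genes called in a comparison of T-DCs, and, for each member called there, the 2 genes outside the family with the smallest root mean square difference between centred profiles. Antisense or overlapping genes (Gm28809, Tead2, R74862, Mir7001, Gm10804, Gm10575 and Gm26728) lie at Cd9, Cd37, Cd81, Cd82 and Cd151, each with at most 163 reads in a sample. Alternatives were a pseudocount of 0.1, other filters and scalings, array weights, a fit without the variance trend or without the group not compared, limma voom on the whole reads, a replicate block, the mean of T-mDC samples 2 and 3, an erythroid covariate, T-DC sample 1 alone and leaving out each sample. One gene was left out of the list of partner proteins and of its counts and is not reported here. The single-cell, flow cytometry and qRT-PCR data of the study were not used here.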

Additional observations from a re-analysis of the deposited data

How the results depend on the processing

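The count of the 10 tetraspanin genes called between T-DCs and N-mDCs was 2 in the analysis reported. It was 0 without a filter, with only the groups compared and with the erythroid covariate. It was 1 with TPM, the replicate block or T-mDC samples 2 and 3 averaged, and 10 with array weights. When each sample was left out it was 0 to 4 (0 without N-mDC sample 1 or 3 or T-DC sample 2, 1 without T-DC sample 3 or T-mDC sample 2 or 3, 4 without T-DC sample 1). Between T-DCs and T-mDCs, 4 as reported, it was 2 with TPM, 1 with T-mDC samples 2 and 3 averaged, 0 with the erythroid covariate, 8 with array weights and 1 to 6 when each sample was left out (1 without T-mDC sample 2 or 3, 6 without T-DC sample 1). Between T-mDCs and N-mDCs, 1 as reported, it was 0 with a pseudocount of 0.1, no filter, an FPKM minimum of 5, TPM, quantile normalization, voom, the replicate block or T-mDC samples 2 and 3 averaged. There it was 3 with only the groups compared and 6 with array weights. When each sample was left out it was 0 to 3 (3 without T-DC sample 1, 0 without any N-mDC sample, T-DC sample 2 or T-mDC sample 2 or 3). Array weights called 66.6%, 77.9% and 30.1% of all genes in the 3 comparisons. Without T-DC sample 1 these shares were 39.5%, 35.1% and 8.02%. The erythroid covariate called 0 of the 12746 genes in the comparison of T-DCs with T-mDCs. TPM moved the median log2 fold change of all genes to -0.20 between T-DCs and T-mDCs and to 0.21 between T-mDCs and N-mDCs, and voom moved the latter to 0.13.

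Direction turned only for genes that were not called. Between T-DCs and N-mDCs, Cd53, Cd81 and Tspan33 turned to 0.36, 0.40 and -0.44 with the erythroid covariate and to 0.41, 0.56 and -0.71 with T-DC sample 1 alone, and when each sample was left out Cd53 ranged from -0.78 to 0.033 and Cd81 from -0.61 to 0.015. Between T-DCs and T-mDCs, Cd53 and Tspan33 turned to 0.96 and -2.20 with the covariate and to 0.73 and -1.57 with T-DC sample 1 alone, Cd53 to 0.068 with array weights, and Cd81 to -0.30 with TPM, -0.27 with quantile normalization, -0.14 with array weights, -0.13 with voom and -0.060 with T-mDC samples 2 and 3 averaged. When each sample was left out, Cd53 ranged there from -0.46 to 0.36 and Cd81 from -0.36 to 0.26. Between T-mDCs and N-mDCs, Cd63 turned to 0.0054 with a pseudocount of 0.1, 0.20 with TPM, 0.031 with quantile normalization, 0.10 with voom and 0.011 with T-mDC samples 2 and 3 averaged, and ranged from -0.28 to 0.35 when each sample was left out. Apart from the settings whose construction leaves fewer samples, the cause was not tested. Over all named genes and alternatives, 1076 values in all, 844 kept direction and side of the threshold, 167 lost the threshold, 35 gained it and 30 turned.

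The replicate block gave 1, 3 and 0 called genes in the 3 comparisons. The labels give every group samples 1 to 3 and do not say whether same-numbered samples share a mouse or a batch. Correlations between the deviations of same-numbered samples from their group means ran from -0.47 to 0.27, 2 of 9 above 0.1. In 4 of 18 cases a sample correlated best with its own number. N-mDC sample 1 and T-mDC sample 3, from different mice, reached 0.43, so these correlations cannot decide whether samples were paired. Among the 10 genes depth was lowest for Cd151, which rested on 131 to 471 reads a sample. Other tetraspanins that were called went lower, to 51 reads for Tspan9 and 95 for Tspan2 in T-DC sample 3. Tspan32 and Tspan15 went down to 53 and 66 reads in T-mDC sample 3.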

Other observations

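Tspan8, a tetraspanin known from epithelia, did not pass the filter because it reached an FPKM of 1 in only 2 samples. Its FPKM was 0, 0.803 and 0.356 in N-mDCs, 0.426, 27.6 and 23.1 in T-DCs, and 0.218, 0.0304 and 0 in T-mDCs. The 2 samples with Tspan8 were T-DC samples 2 and 3, the samples in which Tspan33 was at 151 and 135, the erythroid markers summed to 59053 and 43400 and the neutrophil markers to 3036 and 1014, and the part of either in the level of Tspan8 was not tested. Tspan11 and Prph2, a tetraspanin of photoreceptors, were listed at 0 in all 9 samples.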
